A study of Mus musculus with 2 samples.

Results

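The RNA exosome subunit genes Exosc1 to Exosc10 were examined in CH12.LX, an established mouse B cell lymphoma line. They were taken by gene symbol, and make up 10 genes against 43346 genes in the deposited table. By identifier 9 of them were matched to a row of the table, and the level of Exosc6 was not analysed here. Total RNA of the line, labelled as an immortalized line of strain B10.H-2aH-4bp/Wts with age unknown, was sequenced in 2 libraries that form a single group, biological replicates 1 and 2. No agent, allele or time point is named in the labels, so the only comparison between samples is library against library. Each library has its own biosample record and nothing more is said of how the cultures were grown, so the spread between them may be technical and p-values speak of these libraries only.

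The exosome is a barrel of RNA-degrading machinery found in the nucleus and the cytoplasm of all eukaryotic cells. A ring of subunits that resemble RNase PH, topped by a cap of RNA-binding subunits, threads RNA towards an attached nuclease, and the ring and cap of animals have no catalytic activity of their own. The complex trims ribosomal and small RNAs, removes faulty and promoter-derived transcripts, and in B cells it has been tied to antibody class switching.

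The tables assigned 49278383 expected counts to replicate 1 and 55950529 to replicate 2. Levels are in TPM, a unit that corrects for gene length and library size. Genes with at least 1 TPM in both libraries were called detected, and by this rule 9571 genes were detected, of which 8895 were protein-coding. Protein-coding genes held 24.4% and 24.3% of TPM in replicates 1 and 2, so levels read low against a scale of protein-coding genes alone. All 10 B cell markers were detected, with Ighm, the mu heavy chain, highest at 1545 and 1452 TPM, then Cd74, the invariant chain, at 495.5 and 516 TPM. The lowest were the B lineage factors Ebf1, at 6.18 and 9.44 TPM, and Pax5, at 6.09 and 6.99 TPM. Of markers of other cells, 2 of 5 T cell (summed 3.91 and 4.59 TPM), 0 of 5 myeloid (0.40 and 0.38), 0 of 5 erythroid (0.66 and 1.33), 1 of 4 epithelial (2.78 and 1.10) and 0 of 5 stromal and endothelial markers (0.07 and 0.10) were detected. The detected ones were Cd3d, Cd3g and Epcam, while Cd3e and Dcn were at 0 TPM in both libraries. The line is labelled female, yet the 4 Y-linked genes Eif2s3y, Ddx3y, Kdm5d and Uty lay between 2.40 and 10.23 TPM in replicate 1 and between 2.68 and 11.26 TPM in replicate 2.

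All 9 measured subunits were detected, and each lay above 6.67 TPM, the median of detected protein-coding genes. The median subunit stood at 26.43 TPM in the first library and 24.14 TPM in the second. Levels were unequal within the complex: the highest subunit exceeded the lowest 4.34-fold in replicate 1 and 5.25-fold in replicate 2. The lowest was Exosc1, whose main form is shorter in a later annotation release, and this fold was not tested with that model. The order from high to low was Exosc3, Exosc7, Exosc8, Exosc2, Exosc5, Exosc9, Exosc10, Exosc4 and Exosc1, and 35 of 36 pairs of subunits kept their order between the libraries. The exception was the pair Exosc9 and Exosc10. Of the 8 neighbouring pairs in this order, Exosc3 and Exosc7, Exosc5 and Exosc9, and Exosc4 and Exosc1 had ranges over the libraries that did not overlap, while the ranges of the other 5 pairs did. In bulk RNA, fewer expressing cells and less RNA per cell cannot be told apart.

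**Figure D1:**
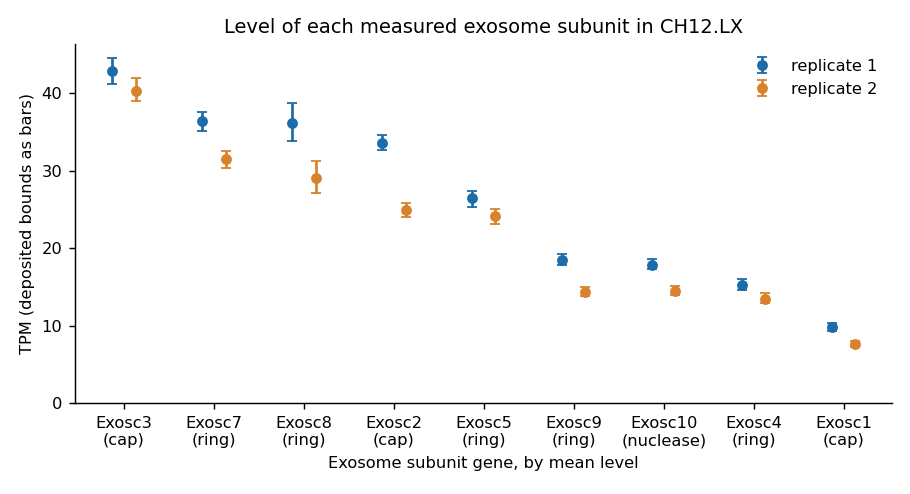
TPM of each measured exosome subunit gene in both CH12.LX libraries, ordered by mean level; points are deposited TPM values and bars the deposited credibility bounds. Exosc3 is highest at 42.82 and 40.31 TPM, Exosc1 lowest at 9.86 and 7.68 TPM, and for every gene the replicate 2 point is the lower one.

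The cap held both ends of this order. Exosc3 (ENSMUSG00000028322, chromosome 4, 45316613 to 45342732, minus strand), the RRP40 subunit, reached 42.82 and 40.31 TPM in replicates 1 and 2, or 41.6 ± 1.78 (SD, n = 2). Only 8.87% of detected protein-coding genes were higher. Its deposited credibility bounds, 41.2 to 44.5 TPM and 39.0 to 41.9 TPM, overlapped between the libraries, which was so for no other subunit. Exosc2 (ENSMUSG00000039356, chromosome 2, 31670715 to 31681349, plus strand), the RRP4 subunit, was at 33.61 and 24.90 TPM, or 29.3 ± 6.16. It had the widest gap between the libraries, with bounds of 32.6 to 34.6 TPM against 24.1 to 25.8 TPM. Exosc1 (ENSMUSG00000034321, chromosome 19, 41922292 to 41933423, minus strand), the CSL4 subunit, was at 9.86 and 7.68 TPM, or 8.77 ± 1.54. It was the only subunit under 10 TPM, and 41.2% of detected protein-coding genes were higher. Its main form, Exosc1-201, has 1622 bases in the annotation used for levels and 1018 in a later release. TPM depends on this length, and the place of Exosc1 in the order was not tested with the shorter model.

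The ring spanned a narrower range. Exosc7 (ENSMUSG00000025785, chromosome 9, 123113215 to 123136129, plus strand), the RRP42 subunit, was at 36.40 and 31.57 TPM, or 33.98 ± 3.42. Exosc8 (ENSMUSG00000027752, chromosome 3, 54728678 to 54735393, minus strand), the RRP43 subunit, was at 36.16 and 29.11 TPM, or 32.6 ± 4.99. These 2 genes did not differ beyond their spread and led the ring in both libraries. Exosc5 (ENSMUSG00000061286, chromosome 7, 25659164 to 25671368, plus strand), the RRP46 subunit, was in the middle of the complex at 26.43 and 24.14 TPM, or 25.3 ± 1.62. Exosc9 (ENSMUSG00000027714, chromosome 3, 36552606 to 36565727, plus strand), the RRP45 subunit, was at 18.49 and 14.34 TPM, or 16.4 ± 2.93. Exosc4 (ENSMUSG00000034259, chromosome 15, 76327397 to 76330677, plus strand), the RRP41 subunit, was at 15.32 and 13.50 TPM, or 14.4 ± 1.29. In the assembled ring these RNase PH-like proteins pair up and are present in equal number, whereas the measured RNA levels of the 5 genes were not equal.

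Exosc10 (ENSMUSG00000017264, chromosome 4, 148558429 to 148582401, plus strand) encodes RRP6, the 3′ exonuclease that joins the exosome mainly in the nucleus and nucleolus. It reached 17.86 and 14.43 TPM, or 16.1 ± 2.43 (SD, n = 2), close to Exosc9 and Exosc4. Both libraries placed it below the median subunit.

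Exosc6, the MTR3 subunit of the ring, was not matched by identifier, so its level was not analysed. In GENCODE M21 (GRCm38) Exosc6 (ENSMUSG00000109941) is a single-exon gene on chromosome 8, 111056339 to 111057664, plus strand, and this identifier was not matched to a row. All 1326 bases of it lie inside the last exon of Aars-201, the main transcript of Aars, the alanyl tRNA synthetase gene, on the same strand. That exon runs from 111055019 to 111057664, and the Aars coding region ends at 111055201, so Exosc6 lies within what M21 annotates as untranslated sequence of Aars-201. The first 30 coding bases of Exosc6 are printed here to mark where its reading frame opens, at base 4457 of Aars-201, which has 5750 bases in both the deposited table and M21, with the start codon in capitals.
Exosc6-201: ATGccgggagaccatcgccgcatccgcggg
Aars was at 31.27 and 31.26 TPM, and Aars-201 held 85.16% and 85.64% of it. Exosc6 makes up 23.1% of the length of Aars-201, and reads from an Exosc6 transcript and from the end of Aars-201 have the same sequence there. No level is given for Exosc6.

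Between the libraries every measured subunit was lower in replicate 2, by small amounts. By TPM, 9 of 9 subunits were lower, and the median log2 ratio (replicate 2 over replicate 1) was -0.31, with a range of -0.43 to -0.09, where 0.1 TPM was added to both values. Among the 9851 genes averaging at least 1 TPM, 56.1% were lower and the median was -0.045. The deposited bounds of TPM were apart for 8 of 9 subunits, against 48.5% of these genes. Many of these genes lie below the subunits in level, and genes of like counts were not compared. The direction held for 9 of 9 subunits under median-of-ratios, total-count and protein-coding scaling.

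Expected counts gave smaller differences. Counts of single subunits ranged from 1591 (Exosc1) to 5504 (Exosc2) in replicate 1 and from 1350 to 4324 in replicate 2. After TMM scaling the median log2 ratio was -0.19, with a range of -0.45 to -0.085, against -0.026 for all genes averaging at least 1 TPM. A two-sided exact conditional binomial test with Benjamini-Hochberg adjustment over 15438 genes called 0 of 9 subunits at an adjusted p of at most 0.05 and a ratio of at least 2, a rule that called 4.77% of all genes. With no minimum ratio the same test called 9 of 9 subunits lower and 0 higher, and 9 had an unadjusted p under 0.05. That rule called 25.1% of all genes lower, and 36.3% of those at a mean of 1 TPM or more. Here too, genes of like counts were not compared, and the share of all genes called higher was not computed. The test covers counting error only, compares these libraries and not conditions, and with 1 library on each side has no replicate check.

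The widest difference was that of Exosc2, with 5504 and 4324 counts, a log2 ratio of -0.45 (95% counting interval -0.51 to -0.39) and an adjusted p of 1.81e-51 by the exact binomial test. Of all genes averaging at least 1 TPM, 14.3% differed by more in either direction. Exosc1 followed at -0.34 (-0.44 to -0.23), with Exosc9 at -0.32 (-0.40 to -0.25) and Exosc10 at -0.26 (-0.32 to -0.20). These 4 were the widest ratios, and they include genes of the cap and the ring and the single nuclease gene. The median was -0.336 over the 3 cap genes and -0.170 over the 5 measured ring genes, and this difference was not tested. The smaller ratios were -0.19 for Exosc7, -0.17 for Exosc4, -0.11 for Exosc5 and -0.10 for Exosc3. Of all genes averaging at least 1 TPM, 51.3% to 72.1% differed by more than these. Exosc8 had 2890 and 2917 counts, a ratio of -0.085 (-0.16 to -0.01) and an adjusted p of 0.0497 by the same exact test. Its call was lost without the minimum of 10 counts, at an adjusted p of 0.0603, within a range of 2.57e-05 to 0.0603 over the alternatives.

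**Figure D2:**
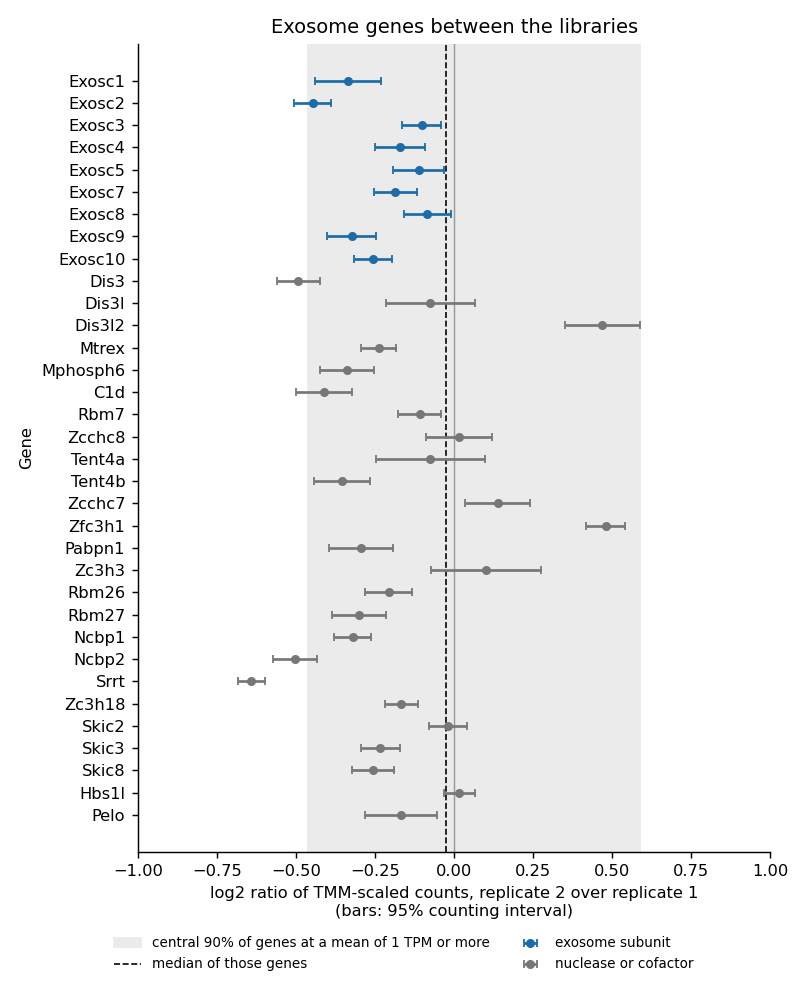
log2 ratio of TMM-scaled expected counts, replicate 2 over replicate 1, for the 9 measured exosome subunits and 25 nuclease and cofactor genes; bars are 95% counting intervals, the shaded band runs from -0.46 to 0.59 (5th to 95th percentile of genes averaging at least 1 TPM) and the dashed line is their median. All 9 subunits lie left of 0, and Srrt, Ncbp2 and Dis3 lie left of the band.

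Exosc8 was the only subunit whose TPM and count differences disagreed widely, at -0.31 by TPM and -0.085 by count. The effective length behind its TPM was 723 bases in replicate 1 and 830 bases in replicate 2, and this length depends on how reads were split among its transcripts. Of 10 annotated Exosc8 transcripts, 3 held 10% or more in either library. Exosc8-201, the full-length coding form of 1300 bases and 11 exons, was at 14.79 and 15.69 TPM, with overlapping bounds. Exosc8-202, a retained-intron form of 478 bases, was at 11.25 and 5.63 TPM, with bounds of 9.57 to 12.9 TPM and 4.22 to 6.98 TPM that did not overlap. By their bounds the retained-intron form thus differed between the libraries, and the full-length form did not differ beyond them. Exosc8-209, a coding model of 412 bases, was at 5.95 and 4.51 TPM, with overlapping bounds.

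The Exosc8 forms differ in what precedes exon 10, and these sequences are shown because they separate the forms. The 20 bases before exon 10 are shown in capitals and the first 20 bases of exon 10 in lower case, 5′ to 3′ on the minus strand of chromosome 3, from GENCODE M21 transcripts. In Exosc8-201 the capitals are the end of exon 9, and in Exosc8-202 they are the end of intron 9.
Exosc8-201: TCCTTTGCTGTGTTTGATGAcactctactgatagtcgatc
Exosc8-202: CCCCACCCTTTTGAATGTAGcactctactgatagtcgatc
Exosc8-202 has 158 bases of its own, all from intron 9, and shares its other 320 bases with Exosc8-201. Its estimate therefore rests on a short stretch. The annotated coding transcripts held 57.4% of Exosc8 TPM in replicate 1 and 69.4% in replicate 2, or 70.3% and 78.3% by expected count. Among 6603 detected protein-coding genes with more than 1 transcript the median coding share was 92.0%, and 15.6% of them lay below Exosc8.

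Exosc3 also differed more in form than in level. Exosc3-201, the coding form of 4 exons, held 92.4% of Exosc3 in replicate 1 and 82.2% in replicate 2, at 39.54 and 33.12 TPM. Exosc3-202, annotated as a processed transcript with no coding region, held 4.85% and 16.4%, at 2.08 and 6.62 TPM. The bounds of Exosc3-202, 0.588 to 3.66 TPM and 4.58 to 8.78 TPM, did not overlap, and it was the one member transcript with separate bounds that was higher in replicate 2. The forms part after exon 3, whose last 20 bases are in lower case below, with the next 20 bases in capitals, on the minus strand of chromosome 4.
Exosc3-201: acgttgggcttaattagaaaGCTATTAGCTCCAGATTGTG
Exosc3-202: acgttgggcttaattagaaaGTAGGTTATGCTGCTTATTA
Exosc3-201 continues into exon 4, whereas Exosc3-202 runs 189 bases into the intron and stops. By TPM the total level of Exosc3 differed least between the libraries, though by count Exosc8 differed less, while the level of its coding form was lower in replicate 2 with bounds that did not overlap.

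The other subunits were mostly a single coding form. Exosc5-201 held 100% of its gene in both libraries, where it was the only transcript listed. Exosc1-201 held 98.5% and 99.0%, Exosc4-201 held 96.8% and 96.0%, Exosc7-201 held 95.7% and 95.8%, Exosc9-201 held 91.5% and 94.3%, and Exosc2-201 held 91.1% and 87.4%. Exosc10-201 held 75.8% and 81.2%, and no other model of this gene reached 10%. Of 44 member transcripts, 17 averaged at least 1 TPM and 11 of these had bounds that were apart, against 39.7% of 15198 transcripts at that level. Transcripts of like counts were not compared. Short reads split transcripts indirectly, so these shares are estimates.

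**Figure D3:**
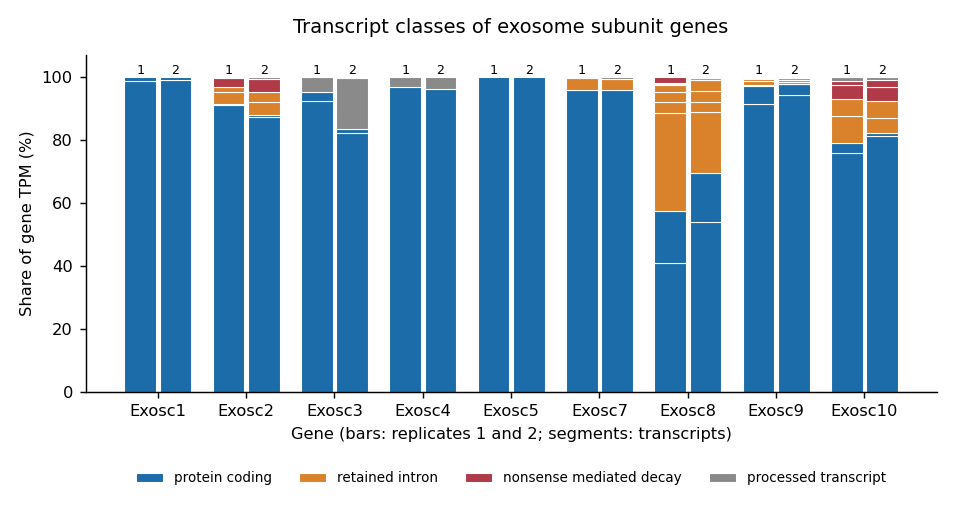
Share of gene TPM (percent) held by each annotated transcript of the 9 measured exosome subunit genes, with the left bar for replicate 1 and the right bar for replicate 2; segments are transcripts coloured by annotated class. Exosc8 has the lowest coding share, 57.4% and 69.4%, and Exosc3 shows a processed transcript segment that is larger in replicate 2.

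The start sites of several subunit genes lie beside a gene on the other strand. Within 1000 bases of the annotated gene start, 6 of 10 members had such a start, against 18.5% of 21951 protein-coding genes and 30.5% of those detected. In 4 pairs the genes point away from each other: Exosc7 and Zdhhc3 at 10 bases, Exosc1 and Zdhhc16 at 57 bases, Exosc8 and Alg5 at 146 bases, and Exosc5 and Bckdha at 183 bases. The RefSeq promoter windows of these 4 members (GRCm38.p6, 250 bases before the RefSeq start to 50 after, on the strand of the member) are shown because a short stretch separates both genes. Capitals mark the bases between the 2 annotated GENCODE starts. The windows are chr9:123112981-123113280 (plus strand) for Exosc7, chr19:41933265-41933564 (minus) for Exosc1, chr3:54735315-54735614 (minus) for Exosc8 and chr7:25658903-25659202 (plus) for Exosc5.
Exosc7: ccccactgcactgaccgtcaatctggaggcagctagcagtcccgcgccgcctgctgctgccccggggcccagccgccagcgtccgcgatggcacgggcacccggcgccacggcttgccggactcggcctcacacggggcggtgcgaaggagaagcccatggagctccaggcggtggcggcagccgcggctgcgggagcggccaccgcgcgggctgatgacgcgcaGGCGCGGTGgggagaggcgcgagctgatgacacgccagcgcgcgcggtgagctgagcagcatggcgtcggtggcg
Exosc1: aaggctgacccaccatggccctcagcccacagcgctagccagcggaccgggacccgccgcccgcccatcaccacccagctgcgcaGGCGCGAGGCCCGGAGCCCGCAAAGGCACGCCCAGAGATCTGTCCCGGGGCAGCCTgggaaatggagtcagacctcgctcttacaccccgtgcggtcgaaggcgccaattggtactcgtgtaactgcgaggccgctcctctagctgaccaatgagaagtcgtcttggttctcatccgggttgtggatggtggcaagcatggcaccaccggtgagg
Exosc8: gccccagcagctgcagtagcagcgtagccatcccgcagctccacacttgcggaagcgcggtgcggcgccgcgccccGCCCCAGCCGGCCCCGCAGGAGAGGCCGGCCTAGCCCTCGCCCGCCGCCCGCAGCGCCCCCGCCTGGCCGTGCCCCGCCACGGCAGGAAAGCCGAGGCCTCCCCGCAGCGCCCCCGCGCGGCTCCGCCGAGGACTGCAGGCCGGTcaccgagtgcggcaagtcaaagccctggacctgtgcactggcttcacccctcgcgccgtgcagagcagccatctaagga
Exosc5: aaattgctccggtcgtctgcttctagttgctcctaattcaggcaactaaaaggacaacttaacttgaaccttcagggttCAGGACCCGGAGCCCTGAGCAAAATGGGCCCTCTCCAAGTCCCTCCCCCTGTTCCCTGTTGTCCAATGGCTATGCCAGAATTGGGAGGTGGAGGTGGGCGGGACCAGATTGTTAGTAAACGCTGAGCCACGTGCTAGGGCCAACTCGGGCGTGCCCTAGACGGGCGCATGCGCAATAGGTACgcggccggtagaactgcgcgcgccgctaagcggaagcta
The G and C content of these windows was 75.3% for Exosc7, 65.7% for Exosc1, 75.7% for Exosc8 and 57.3% for Exosc5, and over all 9 member windows it ran from 48% to 75.7%, against a median of 52.7% over all windows of the table.

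The member was not always the higher gene of its pair. Exosc7 was above Zdhhc3, a protein palmitoyltransferase gene, which was at 10.94 and 9.77 TPM, by 3.33-fold and 3.23-fold. Exosc8 exceeded Alg5, an N-glycosylation enzyme gene at 11.64 and 11.49 TPM, by 3.11-fold and 2.53-fold. Exosc5 exceeded Bckdha, a subunit gene of branched-chain keto acid dehydrogenase at 3.74 and 5.08 TPM, by 7.07-fold and 4.75-fold. Bckdha was the one neighbour of the 6 that was higher in replicate 2. Exosc1 and Zdhhc16, another palmitoyltransferase gene at 9.24 and 8.06 TPM, were nearly level, with ratios of 1.07 and 0.953. The annotated start of Exosc1 belongs to Exosc1-202, which held 1.46% and 0.97% of the gene, and Exosc1-201 starts 184 bases from Zdhhc16 in M21.

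In 2 further pairs the genes overlap at their starts. Exosc4 and Oplah, the 5-oxoprolinase gene, have starts 618 bases apart, and Oplah was at 2.33 and 2.18 TPM. Exosc3 and Dcaf10, a substrate receptor gene of a ubiquitin ligase, have starts 631 bases apart, and Dcaf10 was at 2.24 and 1.77 TPM. The Exosc3 start used there belongs to Exosc3-204, which held 2.80% and 1.18% of the gene, and the main form Exosc3-201 starts 21472 bases from that of Dcaf10. Exosc3 therefore shares a start region with Dcaf10 by a minor form alone.

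**Figure D4:**
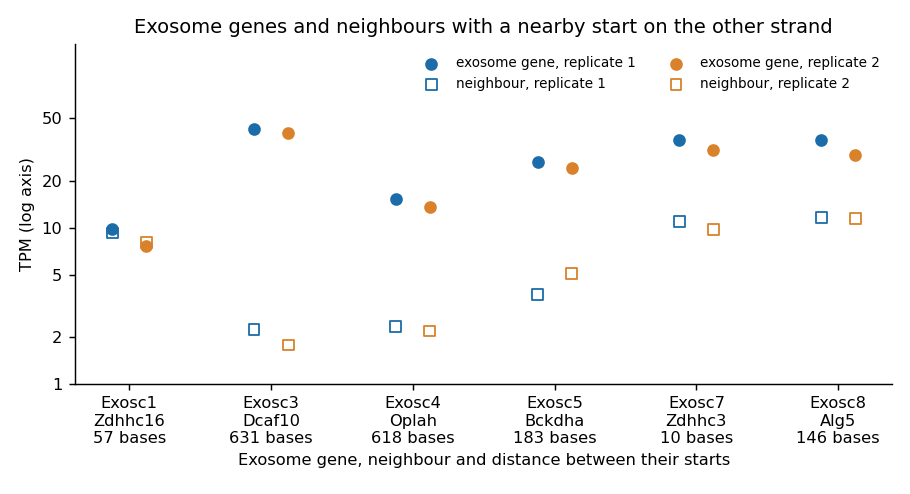
TPM on a log axis of 6 exosome subunit genes (filled circles) and the gene whose start lies within 1000 bases on the other strand (open squares), in both libraries, with the distance between annotated starts. Exosc1 and Zdhhc16 are nearly level, and the other 5 members lie above their neighbours; the Exosc3 distance is that of a minor transcript.

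Promoter windows were in the table for 8 members, 9 windows in all, since Exosc10 had 2. Exosc4 and Exosc9 had no entry. Motifs were searched on both strands as exact letters. TATAAA, the TATA box, was in 0 of 9 windows and in 13.6% of all 32851 windows. GGGCGG, the GC box, was in 6 windows (Exosc1, Exosc3, Exosc5, Exosc7, Exosc8 and Exosc10) and in 35.7% of all. CCAAT was in 3 windows (Exosc1, Exosc2 and Exosc5) and in 37.4% of all. GCGCATGCG, letters of the NRF1 motif, was in 2 (Exosc5 and Exosc10) and in 1.75% of all, and CCGGAAG, of ETS factors, was in 2 (Exosc3 and Exosc10) and in 8.86% of all. CACGTG was in the Exosc5 window and in 7.15% of all, AAGATGGCG, of YY1, in the Exosc2 window and in 1.40% of all, and TCTCGCGA in an Exosc10 window and in 0.995% of all. No motif was in all member windows, and a match is a description of letters only.

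The nuclease genes of the DIS3 family were lower than nearly all barrel genes, with Dis3 above Exosc1 alone in replicate 1 and below all 9 measured subunits in replicate 2. Dis3, the nuclease of the nuclear exosome, was at 10.37 and 7.23 TPM, or 0.392 and 0.300 times the median subunit. Dis3l, its cytoplasmic counterpart, was at 2.17 and 2.11 TPM. Dis3l2, which degrades uridylated RNA without the exosome, was at 3.14 and 4.16 TPM. The exact binomial test with no minimum ratio called Dis3 lower in replicate 2 (log2 count ratio -0.49, adjusted p = 9.86e-46) and Dis3l2 higher (0.47, adjusted p = 1.69e-14). Dis3l was not called (-0.08, adjusted p = 0.414).

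The core nuclear cofactors reached levels within the range of the subunits. Mtrex, the MTR4 helicase that feeds RNA to the nuclear exosome, was at 15.99 and 13.31 TPM. Mphosph6, which docks MTR4, was at 24.83 and 19.36 TPM, and C1d, the partner of RRP6, at 23.27 and 16.93 TPM. All 3 were called lower in replicate 2. In the NEXT complex, which targets short-lived promoter and intron RNAs, Rbm7 was at 18.93 and 17.26 TPM and Zcchc8 at 3.14 and 3.12 TPM. In the TRAMP-like complex, which adds short tails, Tent4b was at 6.59 and 4.99 TPM, Zcchc7 at 5.88 and 6.12 TPM and Tent4a at 1.31 and 1.22 TPM. In ratio, levels within both complexes thus spread more widely than those of the measured ring genes.

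The PAXT connection, which targets polyadenylated nuclear RNA, was led by Pabpn1, a nuclear poly(A)-binding protein, at 17.66 and 13.38 TPM. Zfc3h1, its zinc finger scaffold, was at 7.16 and 9.80 TPM and was called higher in replicate 2 (log2 count ratio 0.48, adjusted p = 1.51e-50, exact binomial test). Rbm26 was at 7.84 and 6.66 TPM, Rbm27 at 3.61 and 2.87 TPM and Zc3h3 at 1.44 and 1.51 TPM. Of the genes of the cap-binding list, Ncbp2 was at 28.62 and 23.30 TPM, Ncbp1 at 18.48 and 14.72 TPM and Zc3h18 at 15.40 and 13.04 TPM. Srrt, the ARS2 protein that links the RNA cap to the exosome, was at 35.48 and 22.33 TPM, and its log2 count ratio of -0.64 was the farthest from 0 among the 25 partner genes. In the cytoplasm, the SKI complex that feeds messenger RNA to the exosome had Skic8 at 34.08 and 28.15 TPM, Skic2 at 12.59 and 11.81 TPM and Skic3 at 7.48 and 6.24 TPM. The ribosome rescue factors Hbs1l and Pelo were at 22.27 and 22.10 TPM and at 8.11 and 7.10 TPM.

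Of these 25 nuclease and cofactor genes, 25 were detected, with a median of 8.80 TPM. By mean over the libraries 3 of them (Skic8, Srrt and Ncbp2) exceeded the median subunit, although Srrt and Ncbp2 lay below it in replicate 2. By mean 13 exceeded Exosc1, Dis3 among them at 8.80 against 8.77 TPM. By TPM 21 of 25 were lower in replicate 2, against 56.1% of genes averaging at least 1 TPM, and their median log2 TPM ratio was -0.24. With no minimum ratio 16 were called lower and 3 higher (Dis3l2, Zcchc7 and Zfc3h1), where 25.1% of all genes and 36.3% of those averaging at least 1 TPM were called lower. With a ratio of at least 2 the test called 0 of 25, against 4.77% of all genes. By list, 1 of 3 DIS3 family, 3 of 3 core cofactor, 1 of 2 NEXT, 1 of 3 TRAMP-like, 3 of 5 PAXT, 4 of 4 cap-binding and 3 of 5 SKI and rescue genes were called lower. Pooled, the partners thus lay on both sides, while the 9 measured subunits lay on one, and this difference was not tested. The share of all genes called higher was not computed. Being wholly lower in replicate 2 was not particular to the subunits. By TPM, 3 of 3 core cofactor, 2 of 2 NEXT, 4 of 4 cap-binding and 5 of 5 SKI and rescue genes were lower. For the DIS3 family, TRAMP-like and PAXT lists it was 2 of 3, 2 of 3 and 3 of 5.

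**Figure D5:**
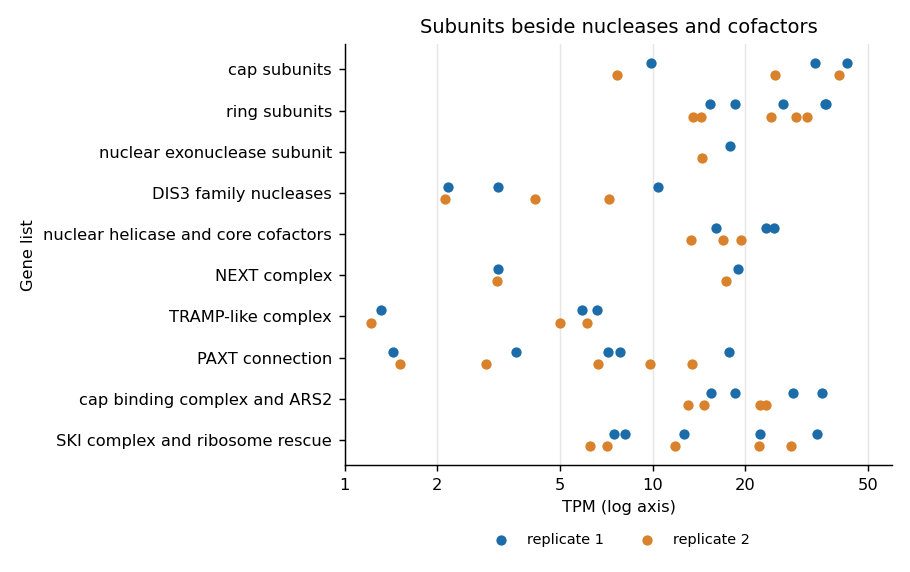
TPM on a log axis of each gene of the exosome lists in both libraries, with 1 row per list and 1 point per gene and library. The cap and ring rows lie mostly to the right of the DIS3 family, TRAMP-like and PAXT rows, and the Exosc1 points at 9.86 and 7.68 TPM are the lowest of the subunits.

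Several subunit loci overlap genes on the other strand, and whether counting used strand is not given in the sources used here. Exosc9 overlaps 863 bases of Ccna2, the cyclin A2 gene, which was at 29.83 and 24.52 TPM, above Exosc9 itself, and their transcripts match over 431 bases. Exosc8 overlaps Supt20 by 89 bases (6.17 and 5.49 TPM), and Exosc4 overlaps Oplah by 619. Tmem91, Gm13427 and Gm13204, which overlap Exosc5, Exosc2 and Exosc10, were each under 0.3 TPM. Exosc2 transcripts also matched transcripts of 59 other genes at up to 94.5% identity over 200 to 227 bases, so reads from such stretches could be shared. No other subunit had a match of at least 200 bases at 90% identity outside these overlaps and that of Exosc6 with Aars.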

How the data were processed

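Total RNA-seq of 2 CH12.LX libraries was analysed from gene tables (releases M2 to M4 of the annotation) and M4 transcript tables on mm10, per the labels. An aligner or quantifier is not given in the sources used here. Expected counts, the estimated read numbers deposited per feature (per the file headers), were rounded for tests. The deposited TPM and FPKM values, and posterior mean TPM, are named so per the file headers. The transcript tables add deposited percent values, each transcript's part of its gene's TPM, per the file headers. The authors deposited lower and upper credibility bounds of TPM as other columns, per the file headers. Rows that name no gene or a spike-in were left out.

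The M4 table was the main one. Gene symbols, coordinates and biotypes are those of GENCODE M21 (GRCm38, the same assembly), and 42462 of 43346 genes matched. Some transcript models differ between M4 and M21, by up to 797 bases for Exosc1-202. Exosc1-201, the main form of Exosc1, has 1622 bases in M4 and 1018 in M21. Promoter windows are from RefSeq (GRCm38.p6).

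Effective library sizes were TMM-scaled (edgeR 4.0.16, R 4.3.3). Genes with at least 10 counts summed over the libraries were compared by an exact conditional binomial test, two-sided with the smaller tail doubled, adjusted by Benjamini-Hochberg over all genes tested at 0.05, with a ratio of at least 2. A quasi-likelihood fit has no residual degrees of freedom with 1 library on each side. The difference between the libraries exceeded sampling noise (chi-square per degree of freedom 172), so they were not treated as 1 library deposited more than once, which does not tell technical from biological spread. The test was run on simulated counts that held counting error alone. The libraries differed by more than that, so the simulation does not check the p-values printed here. Log ratios of TPM used a pseudocount of 0.1. Copies were sought with blastn 2.17.0 at 90% identity over 200 bases. Python 3.11.15 was used with scipy 1.17.1, pandas 2.3.3, numpy 2.4.6 and, for figures, matplotlib 3.10.9.

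Members, lists and tests were chosen with earlier results of these data known. The text names all members, all genes of lists of at most 6 genes other than marker lists (1 list is not reported here), of longer lists the 2 highest and 2 lowest and any gene called with the ratio, member transcripts at 10% or more in either library, and genes with a start within 1000 bases on the other strand. Any other named gene was picked after its value was known. Alternatives were other scalings, count and TPM minimums, ratios, pseudocounts, annotations, units and each library alone.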

Additional observations from a re-analysis of the deposited data

How the results depend on the processing

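With 1 group of 2 libraries, no value has a check beyond these libraries, and counting intervals leave out the assignment of shared reads. With no minimum ratio, 9 subunits were called different between the libraries in place of 0, and with a ratio of 1.5, other scalings, no count minimum or annotations M2 and M3 the number was 0. The median level of the subunits was 103.9 TPM after rescaling to protein-coding genes and 55.7 in FPKM, against 25.29 TPM, and it ranged from 24.14 to 26.43 with each library alone. The median log2 ratio was -0.186 from TMM-scaled counts, against -0.306 from TPM, and no result reversed. All 9 were detected under each alternative except a minimum of 10 TPM, which left 8. Rescaling moved the level of 9 of 9 subunits, while M2, M3 and posterior means moved 0 by more than the spread between libraries. Shares by expected count moved for 8 of 12 transcripts, among them Exosc8-201, from 47.4% to 69.1%, and Exosc8-202, from 25.2% to 10.5%. The labels give a size range of 300 to 350 with no unit, and Exosc8-202 and Exosc8-209 are 478 and 412 bases long. No paired analysis was possible because the labels give a single group.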

Other observations

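The lists of other RNA decay pathways had lower medians than the exosome subunits, whose median was 25.29 TPM. The sets are unlike, since the subunits leave out the nuclease and cofactor genes of the exosome lists. Those 25 genes had a median of 8.80 TPM, and the DIS3 family list among them had 3.65 TPM. The nonsense-mediated decay list, 10 of 10 detected, had a median of 5.45 TPM. It was led by Smg5, at 14.97 and 12.84 TPM in replicates 1 and 2, and Upf1, the central helicase of the pathway, at 10.55 and 9.04 TPM, with Upf2 at 2.79 and 2.21 TPM and Smg6, its endonuclease, at 2.83 TPM in both. The deadenylation list, 13 of 13 detected, had a median of 9.61 TPM, with Cnot8 at 22.62 and 21.58 TPM, Cnot2 at 18.80 and 17.18 TPM, Cnot11 at 4.30 and 3.64 TPM and Pan2 at 1.70 and 2.28 TPM.

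In the list of decapping and 5′ to 3′ decay, 9 of 10 genes were detected, with a median of 3.66 TPM. Xrn2, the nuclear 5′ exonuclease, was at 31.52 and 25.40 TPM, in the range of the exosome subunits, whereas Xrn1, its cytoplasmic counterpart, was at 1.74 and 1.97 TPM. Edc4 was at 11.36 and 9.97 TPM, and Dcp1b was under 1 TPM, at 0.45 and 0.55 TPM. With no minimum ratio, the exact binomial test called 4 genes lower and 2 higher in replicate 2 for decapping, 8 and 2 for deadenylation, and 4 and 0 for nonsense-mediated decay. That rule called 25.1% of all genes lower, and 36.3% of those averaging at least 1 TPM, near the share for decapping and nonsense-mediated decay. No such share was computed for genes called higher.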
